A study of Platycodon grandiflorus with 6 samples.

Results

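The enzymes HMGR, IDI, FPPS, squalene synthase (SS) and squalene epoxidase (SE) were followed through the transcriptome of Platycodon grandiflorus, a medicinal plant whose saponins are built on a triterpene skeleton. A unigene, which is an assembled transcript contig, was taken as a member where the protein name of its SwissProt match contained the name of 1 of these enzymes. The names matched 42 of 152777 unigenes, and 11 of those were skipped because their NR match was to a peanut (Arachis) protein, which left 31 members. They comprised 9 HMGR, 4 IDI, 1 FPPS, 4 SS and 13 SE unigenes. Contigs that share a CL number were put in the same cluster during assembly by the authors, and counting each such cluster once gave 14 clusters and single unigenes, namely 5 for HMGR, 6 for SE and 1 for each of the other enzymes. The CL clusters held 26 of the members and the other 5 were single unigenes. Clusters and single unigenes of the same enzyme are called paralogues below, and whether each is a separate gene was not checked. Member lengths ran between 240 and 7737 bp with a median of 1870 bp.

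RNA-seq was made of 3 callus and 3 leaf libraries. Callus, the unorganised tissue that grows from a cut explant on hormone medium, was raised from stems with nodes on MS medium holding NAA (an auxin) at 1.0 mg/L and 6-BA (a cytokinin) at 0.5 mg/L, and was cultured for 50 days. Leaves were taken from the original plant, so tissue of origin, hormones and culture all differ together between the groups and cannot be told apart. The study's methods call the libraries of a tissue independent biological samples. The labels do not name the culture or plant behind each one, and p-values here measure the spread between these libraries.

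In plants the mevalonate pathway runs in the cytosol and makes isopentenyl diphosphate, the building unit of sterols and triterpenes. HMGR carries out its committed, strongly regulated step. IDI interconverts isopentenyl and dimethylallyl diphosphate, FPPS joins these units to farnesyl diphosphate, SS condenses a pair of farnesyl diphosphates to squalene, and SE oxidises squalene to oxidosqualene, from which the sterol and saponin branches part.

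The expected counts of the libraries summed to between 17963458 and 19444638. The members held 0.0819, 0.0738 and 0.0742% of the counts of callus replicates 1 to 3, against 0.0330, 0.0266 and 0.0362% in leaf replicates 1 to 3. Leaf photosynthesis markers (138 unigenes) summed to between 12516 and 12987 FPKM in callus and between 33928 and 43008 FPKM in leaves. Of the 138, 6 were at 0 in all callus libraries and 9 in all leaf libraries. By edgeR at an adjusted p of 0.05, 50 of the 112 tested were lower in callus and 1 was higher. Of all unigenes tested, 12.3% were lower and 14.2% higher. Of 4 callus formation markers only LBD18 was matched, at 1.34 to 1.96 FPKM in callus and 0 to 0.26 FPKM in leaves, and LBD16, LBD29 and WIND1 were not matched. Phloem markers (9 unigenes) summed to 41.7 to 96.3 FPKM in callus and 2.86 to 8.63 FPKM in leaves. By the same test 5 of the 9 were higher in callus and 1 was lower. Xylem markers (19 unigenes, 3 of them at 0 in all callus and 10 in all leaf libraries) summed to 7.32 to 11.8 FPKM in callus and 2.13 to 3.04 FPKM in leaves. Of 2 epidermis marker names only GLABRA2 was matched, by 1 unigene at 12.9 to 15.8 FPKM in callus and 6.54 to 10.2 FPKM in leaves. The match is to a name that contains GLABRA2, and whether the unigene is GL2 itself was not checked. The part of these markers in the results was not tested, and in bulk tissue fewer cells of a type and less RNA per cell cannot be told apart. Peanut-matching unigenes held 1.17% of the counts of leaf replicate 1 and at most 0.347% of any other library.

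Summed over its member contigs, each of the 5 enzymes was more abundant in every callus library than in any leaf library. IDI showed the largest difference, followed by HMGR, FPPS, SE and SS. FPKM, which scales reads by transcript length and library size, allows the levels of different genes to be set side by side. In callus the order by mean FPKM was SE, HMGR, IDI, SS and FPPS, and the ranges of HMGR and IDI and of IDI and SS overlapped. In leaves the order was SE, SS, FPPS, HMGR and IDI, and only SS and FPPS were neighbours whose ranges did not overlap.

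**Figure D1:**
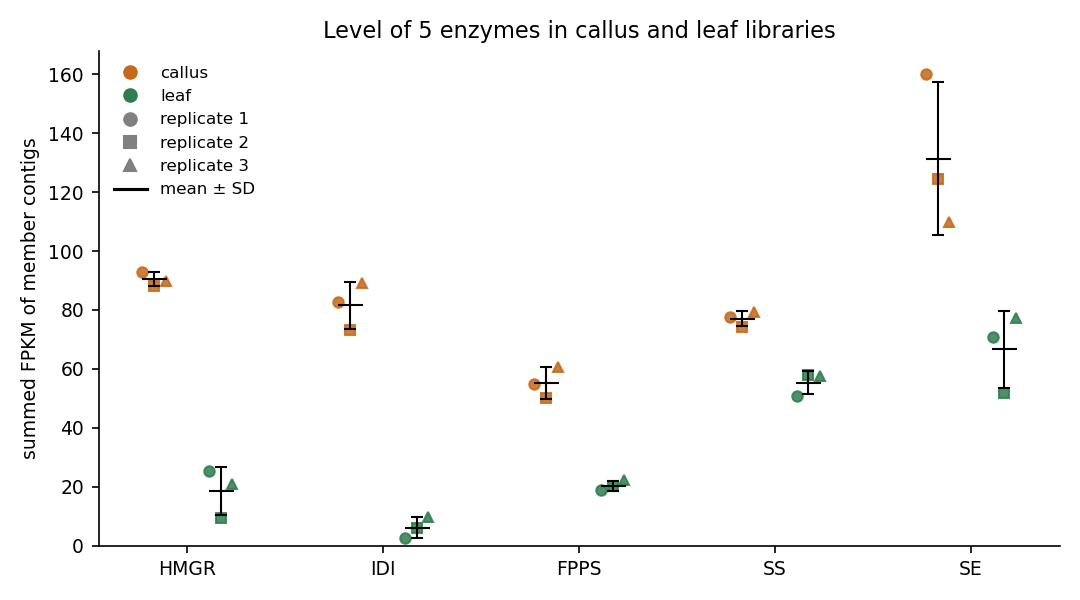
Summed FPKM of the member contigs of each enzyme (vertical axis) in callus and leaf libraries. Points are libraries, with the replicate shown by shape, and black lines are the mean ± SD of 3 libraries. All callus points lie above all leaf points of the same enzyme, with the narrowest gap for SS, at 74.3 FPKM for the lowest callus library and 57.8 FPKM for the highest leaf library.

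HMGR reached 92.9, 88.2 and 90.0 FPKM in callus replicates 1 to 3, against 25.3, 9.56 and 21.1 FPKM in leaf replicates 1 to 3. The callus libraries were close together and the leaf libraries spread more than 2-fold, with leaf replicate 2 the lowest. The summed counts differed by a log2 fold change of 2.39 (fitted standard error 0.392, edgeR adjusted p = 0.0113), a 5.25-fold higher level in callus.

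IDI stood at 82.6, 73.3 and 89.0 FPKM in callus, against 2.61, 5.86 and 9.67 FPKM in leaves. The log2 fold change was 3.79 (fitted standard error 0.643, edgeR adjusted p = 0.0121), or 13.8-fold, with the peanut-matching contig of the IDI cluster skipped. Summed over the whole cluster, that contig included, the difference was 9.15-fold. FPPS had 54.8, 50.0 and 60.7 FPKM in callus, against 18.9, 20.1 and 22.2 FPKM in leaves. Both tissues were tight around their means, and the log2 fold change was 1.43 (fitted standard error 0.205, edgeR adjusted p = 0.00913).

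SE amounted to 160, 124 and 110 FPKM in callus, against 70.8, 51.8 and 77.2 FPKM in leaves. Its log2 fold change of 0.84 (fitted standard error 0.239, edgeR adjusted p = 0.0485) passed the threshold by little, and leaving out any single library took the adjusted p to between 0.0570 and 0.112. SS had 77.5, 74.3 and 79.5 FPKM in callus, against 50.9, 57.8 and 57.5 FPKM in leaves. Although the tissues did not overlap, its log2 fold change of 0.42 (fitted standard error 0.178, edgeR adjusted p = 0.127) did not pass the test. The calls of HMGR and IDI were lost without callus replicate 2 (adjusted p 0.0543 and 0.0560) or without callus replicate 3 (0.0621 and 0.0646), and that of FPPS without callus replicate 3 (0.0621), while the log2 fold changes stayed at 2.09 or more for HMGR, 3.35 or more for IDI and 1.36 or more for FPPS.

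Of the 31 members, 23 had counts in all 6 libraries, 8 averaged under 1 FPKM in both tissues, and 24 passed the filter on low counts and were tested singly. By edgeR at an adjusted p of 0.05, 7 of the 24 were higher in callus, against 14.2% of all 66307 unigenes tested, and 1 was lower, against 12.3%. A further 4 of the 24 had an unadjusted p under 0.05 without passing the adjustment. Every callus library lay above every leaf library in 12 of the 24 members, against 28.4% of the unigenes tested, and below in 4, against 25.5%. The median log2 fold change of the 24 was 0.75, beside -0.10 over all unigenes tested. DESeq2 at the thresholds the study names (an adjusted p of 0.001 and at least a 2-fold change) called the same 7 higher and the same 1 lower, where it called 7.44% and 5.42% of unigenes, while edgeR at those thresholds called 0.0% of the unigenes in the whole table and 0 members.

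Because reads that match several contigs are divided among them before deposition, the counts were also summed over each cluster. Of the 14 clusters and single unigenes, 13 were tested. In callus 7 of them were higher, against 22.0% of all 32899 tested, and 1 was lower, against 20.8%. The higher ones were the HMGR clusters CL7479, CL11572 and CL4961, the IDI cluster CL6253, the FPPS unigene Unigene17108, and CL5581 and Unigene24256 of SE. The lower one was CL3073, also of SE. DESeq2 at the thresholds the study names called 6 of the 7, all but CL5581, where it called 9.29% of clusters higher, and it did not call CL3073. Those 6 also kept the edgeR call with each library left out in turn.

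**Figure D2:**
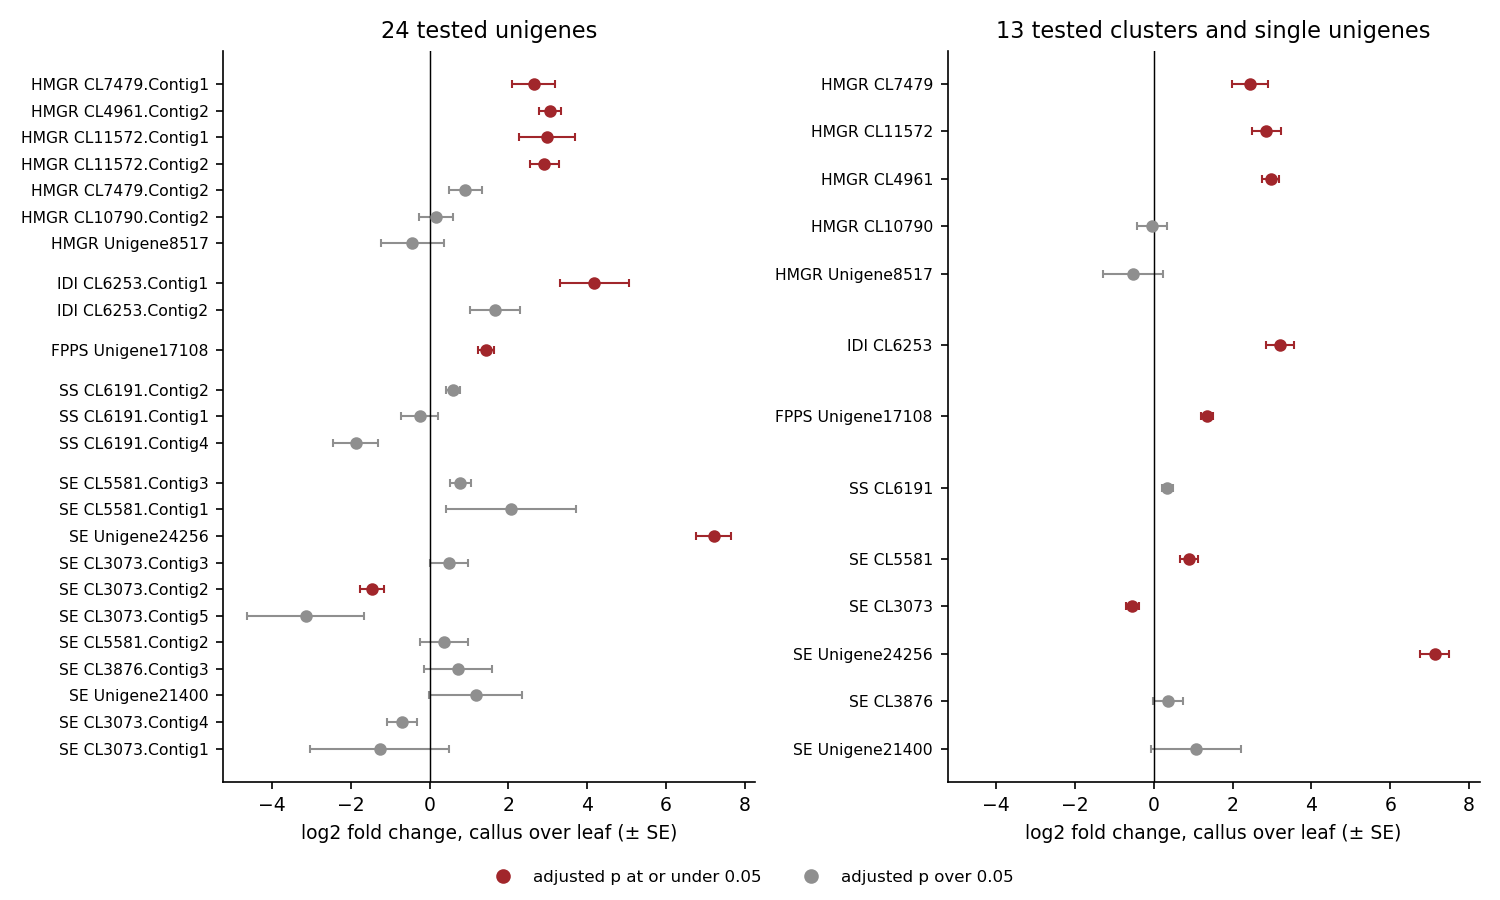
Log2 fold change of callus over leaf (horizontal axis) by edgeR for the 24 tested member unigenes (left) and the 13 tested clusters and single unigenes (right), grouped by enzyme. Points are estimates, bars are ± 1 standard error derived from the test statistic, and red marks an adjusted p at or under 0.05. Unigene24256 stands farthest to the right in both panels, at 7.21 and 7.13, and CL3073.Contig2 and CL3073 are the only red points left of 0. The CL3876 and CL6253 points on the right include contigs of the cluster that are not members.

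The HMGR paralogues fell into those that were higher in callus and those that were not. CL7479, CL11572 and CL4961 were each between 5.44-fold and 7.81-fold higher in callus, whereas CL10790 and Unigene8517 showed no difference beyond the spread of the libraries. CL7479 was the most abundant, at 65.4, 56.3 and 58.9 FPKM in callus and 16.2, 4.95 and 12.7 FPKM in leaves. Leaf replicate 2 was lowest here too. The log2 fold change of the cluster was 2.44 (fitted standard error 0.457, edgeR adjusted p = 0.00823).

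CL7479.Contig1 (2481 bp) held most of the reads of that cluster, with 60.4, 52.7 and 54.7 FPKM in callus against 14.2, 3.02 and 9.90 FPKM in leaves (log2 fold change 2.65, fitted standard error 0.546, edgeR adjusted p = 0.0197). Its shorter companion CL7479.Contig2 (1291 bp) had 5.00, 3.57 and 4.11 FPKM in callus against 2.03, 1.93 and 2.82 FPKM in leaves. The groups did not overlap for either contig, but the log2 fold change of 0.91 for CL7479.Contig2 had an edgeR adjusted p of 0.158. The call of CL7479.Contig1 was lost whenever a callus library was left out.

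CL11572, whose best NR match is an HMGR of Panax ginseng, had 14, 17.1 and 15.0 FPKM in callus, against 1.43, 1.25 and 3.18 FPKM in leaves. All leaf values lay far below the callus values, with leaf replicate 3 the highest of them. The log2 fold change was 2.85 (fitted standard error 0.363, edgeR adjusted p = 0.00261). Both of its contigs were about equally abundant in callus, CL11572.Contig1 (1795 bp) at 7.29, 8.09 and 7.96 FPKM and CL11572.Contig2 (2893 bp) at 6.70, 9.03 and 6.99 FPKM. In leaves CL11572.Contig1 was at 0.35, 0.59 and 1.95 FPKM and CL11572.Contig2 at 1.08, 0.66 and 1.23 FPKM. Tested singly, both contigs were higher in callus, with log2 fold changes of 2.99 and 2.92 (fitted standard error 0.705 and 0.357, edgeR adjusted p = 0.0285 and 0.00681). The call of CL11572.Contig1 was lost without any single callus library or without leaf replicate 2 (adjusted p between 0.0720 and 0.0995), and that of CL11572.Contig2 without callus replicate 3.

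CL4961 had the smallest standard error of the HMGR clusters. It was measured at 10.0, 12.3 and 12.6 FPKM in callus, against 1.41, 1.28 and 1.51 FPKM in leaves, a log2 fold change of 2.97 (fitted standard error 0.220, edgeR adjusted p = 0.000648). Nearly all of it came from CL4961.Contig2 (2174 bp), with 9.63, 11.5 and 11.3 FPKM in callus and 1.25, 1.28 and 1.29 FPKM in leaves (log2 fold change 3.06, fitted standard error 0.277, edgeR adjusted p = 0.00461). This contig kept its call with each library left out.

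CL10790 had 2.38, 1.77 and 2.24 FPKM in callus, against 3.20, 1.71 and 2.63 FPKM in leaves. The tissues overlapped, and the log2 fold change of -0.05 (fitted standard error 0.383, edgeR adjusted p = 0.928) changed sign with the tool and the libraries used. Its contigs were not alike, since CL10790.Contig2 (2408 bp) was at 2.38, 1.77 and 2.24 FPKM in callus and 2.27, 1.2 and 2.29 FPKM in leaves, whereas CL10790.Contig1 (801 bp) had 0 counts in all callus libraries and 0.93, 0.51 and 0.34 FPKM in leaves. Set against a floor of 3 counts over the callus group, the 21.9 leaf counts of CL10790.Contig1 were 7.30-fold higher. This ratio leaves out the spread between libraries and the division of reads among contigs. CL10790.Contig1 did not pass the filter of the edgeR test, while DESeq2 called it lower (adjusted p = 0.0196).

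Unigene8517 (1902 bp) was the least abundant HMGR, at 1.11, 0.77 and 1.35 FPKM in callus and 3.03, 0.37 and 1.01 FPKM in leaves. The leaf values enclosed the callus values, and its log2 fold change was -0.52 (fitted standard error 0.760, edgeR adjusted p = 0.605). The Pfam entry given for it is a herpesvirus glycoprotein and not an HMGR domain, so its annotation as HMGR is less certain than that of the others.

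**Figure D3:**
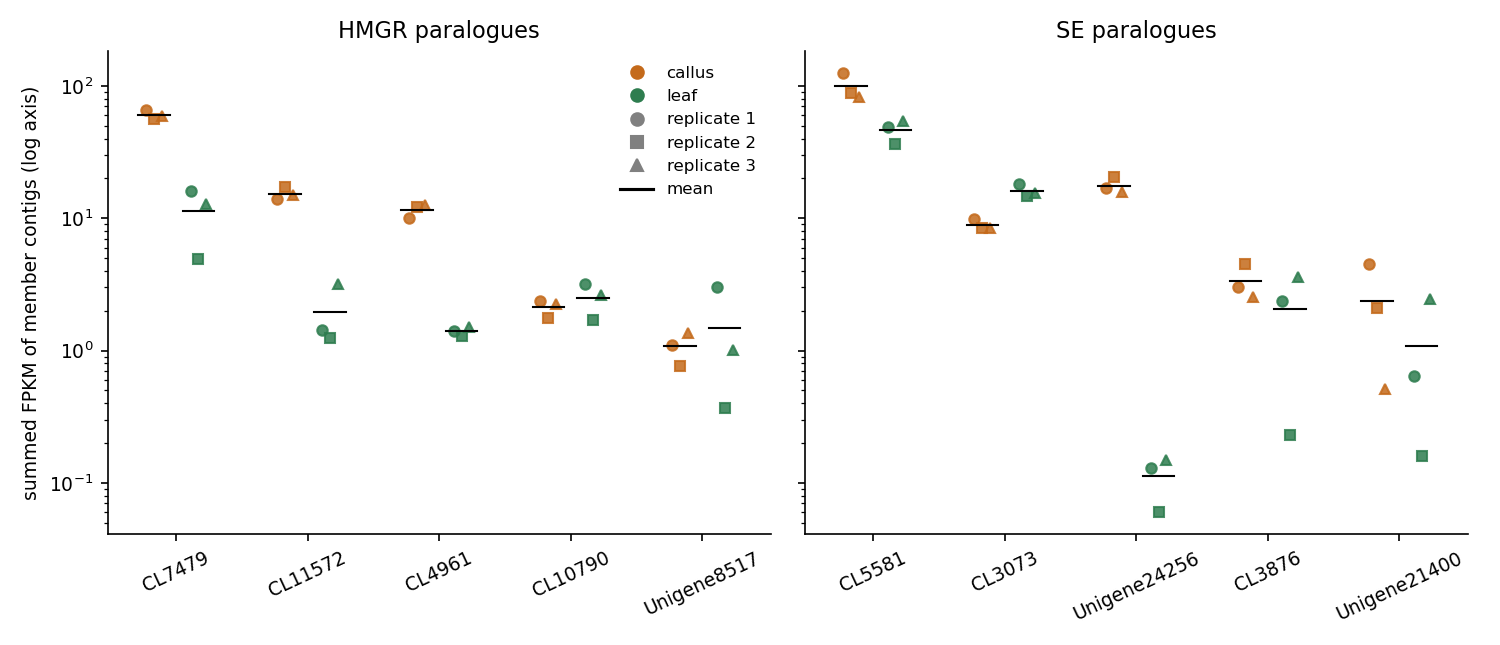
Summed FPKM of the member contigs (vertical log axis) of the 5 HMGR paralogues (left) and the 5 named SE paralogues (right) in callus and leaf libraries. Points are libraries, with the replicate shown by shape, and black lines are means of 3 libraries. CL7479, CL11572, CL4961, CL5581 and Unigene24256 have all callus points above all leaf points, CL3073 has them below, and the others overlap.

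As shares of the summed HMGR FPKM, CL7479 made up 70.4, 63.8 and 65.4% in callus and 64.1, 51.8 and 60.4% in leaves. CL10790 made up 2.56, 2.01 and 2.49% in callus and 12.7, 17.9 and 12.5% in leaves. Between CL11572 and CL7479, the most abundant pair, the log2 ratio of FPKM averaged -1.97 ± 0.25 in callus and -2.43 ± 0.85 in leaves (SD, n = 3 each). This difference of 0.46 was within the spread of the libraries (two-sided exact permutation test p = 0.7, and 0.7 after Benjamini-Hochberg adjustment over the 2 main pairs, 1 of HMGR and 1 of SE), and without leaf replicate 1 it was -0.03. For the pair of CL10790 over CL7479, chosen after the values were seen, the log2 ratio averaged -4.76 ± 0.13 in callus and -2.01 ± 0.46 in leaves, without overlap. The exact permutation test of that difference of -2.76 gave p = 0.1 (n = 3 each), the smallest value that 3 against 3 libraries allow. After Benjamini-Hochberg adjustment over all 9 pairs with the most abundant paralogue of HMGR or SE it was 0.18, and 5 of the 9 stood at 0.1 unadjusted. Unigene62018 over CL5581 is among these, although Unigene62018 had 2 counts, all in leaf replicate 3. In the other libraries that ratio follows only CL5581 and the 0.1 added to FPKM. The adjusted value of 0.18 counts that pair too.

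**Figure D4:**
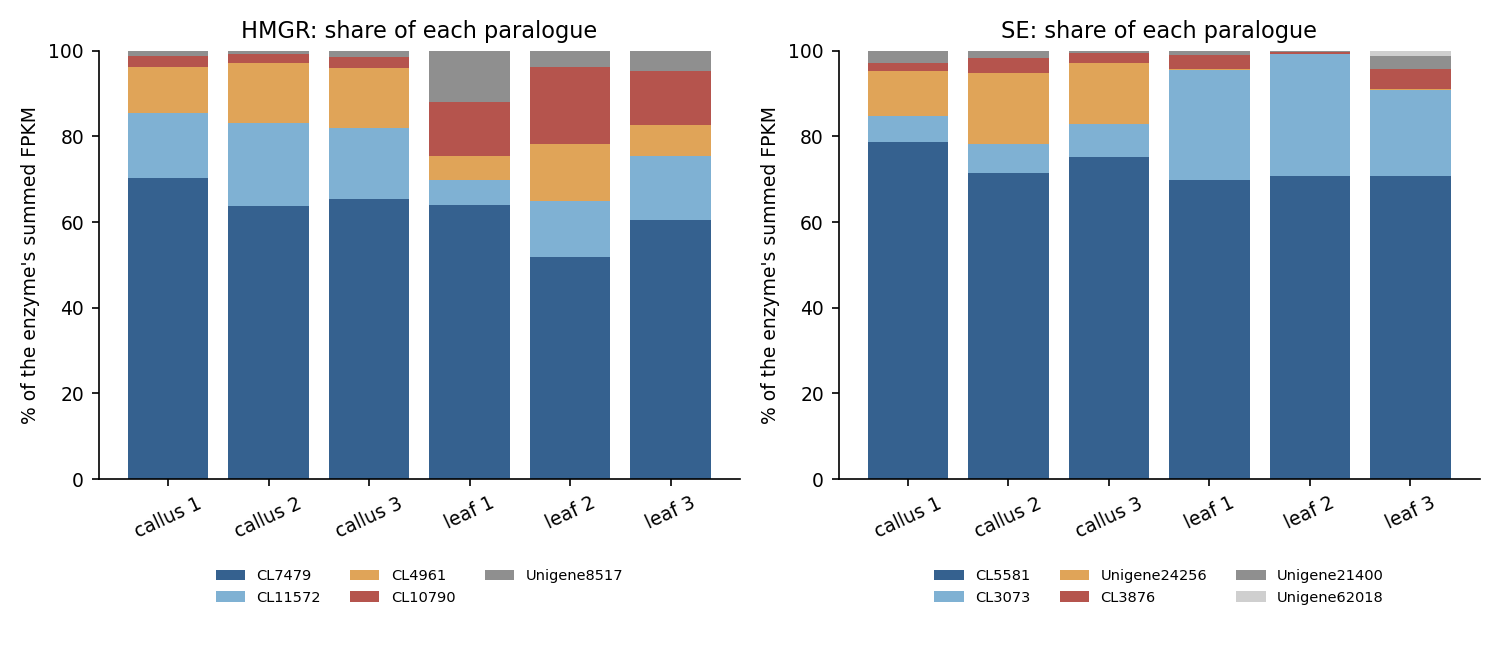
Share of each paralogue in the summed FPKM of HMGR (left) and SE (right), as stacked percentages, in each callus and leaf library. CL7479 and CL5581 hold more than 51% in every library. CL10790 is at 2.01 to 2.56% in callus and 12.5 to 17.9% in leaves, and Unigene24256 is visible only in callus, at 10.5 to 16.4%, with 0.194% or less in leaves.

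IDI was represented by the single cluster CL6253, with 4 member contigs and 1 skipped contig. The most abundant contig CL6253.Contig1 (1261 bp) had 80.0, 71.4 and 87.1 FPKM in callus, against 0.65, 4.76 and 7.59 FPKM in leaves. Leaf replicate 1 was the lowest by a wide margin. The log2 fold change was 4.18 (fitted standard error 0.881, edgeR adjusted p = 0.0208), and it lost its call when any callus library or leaf replicate 2 was left out.

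The remaining IDI member contigs were scarce, although CL6253.Contig3 lay above CL6253.Contig1 in leaf replicate 1. CL6253.Contig2 (2724 bp) had 2.02, 1.45 and 1.53 FPKM in callus and 0.26, 0.40 and 0.95 FPKM in leaves, without overlap (log2 fold change 1.65, edgeR adjusted p = 0.103). CL6253.Contig3 (537 bp) had 0.33, 0.37 and 0.23 FPKM in callus and 1.06, 0.70 and 0.38 FPKM in leaves, so it alone among the IDI members was lower in every callus library than in any leaf library, but with too few counts to pass the filter. CL6253.Contig4 (659 bp) was at 0.30, 0 and 0.17 FPKM in callus and 0.64, 0 and 0.75 FPKM in leaves. CL6253.Contig1 therefore made up 96.8, 97.5 and 97.8% of IDI FPKM in callus, and 24.9, 81.2 and 78.5% in leaves. Summed with the skipped peanut-matching contig, the cluster had a log2 fold change of 3.19 (fitted standard error 0.356, edgeR adjusted p = 0.00176), and over its member contigs alone one of 3.70. The skipped contig had 4.96, 0.99 and 3.55 FPKM in leaf replicates 1 to 3. With it counted in, the cluster stood at 7.57, 6.85 and 13.2 FPKM there, so leaf replicate 1 was then not the lowest.

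FPPS had a single member, Unigene17108 (1387 bp), whose best NR match is a farnesyl diphosphate synthase of Panax ginseng. Its FPKM values are those given above for the enzyme. In the cluster table the log2 fold change was 1.34 (fitted standard error 0.154, edgeR adjusted p = 0.00191), and the call was kept there with each library left out.

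SS likewise formed a single cluster, CL6191, and its contigs differed in direction. CL6191.Contig2 (1838 bp), annotated as SS of Panax ginseng, had 73.8, 71.0 and 76.0 FPKM in callus against 46, 52.5 and 47.4 FPKM in leaves, without overlap. CL6191.Contig4 (3052 bp) had 0.81, 0.99 and 0.96 FPKM in callus against 1.55, 2.62 and 5.83 FPKM in leaves, with every callus library below every leaf library. Neither passed the edgeR threshold, with log2 fold changes of 0.59 (fitted standard error 0.178, adjusted p = 0.0563) and -1.87 (fitted standard error 0.572, adjusted p = 0.0577), while DESeq2 called both.

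CL6191.Contig1 (2105 bp) had 2.86, 2.00 and 2.31 FPKM in callus and 2.97, 1.61 and 4.01 FPKM in leaves, and CL6191.Contig3 (593 bp) stayed at 1.10 FPKM or less in every library. The tissues overlapped for both. CL6191.Contig2 thus held 95.3, 95.5 and 95.7% of SS FPKM in callus, and 90.4, 90.8 and 82.6% in leaves. For the cluster as a whole the log2 fold change was 0.34 (fitted standard error 0.140, edgeR adjusted p = 0.0975). With limma on log2(FPKM + 1) the cluster passed (log2 fold change 0.47, adjusted p = 0.0376).

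**Figure D5:**
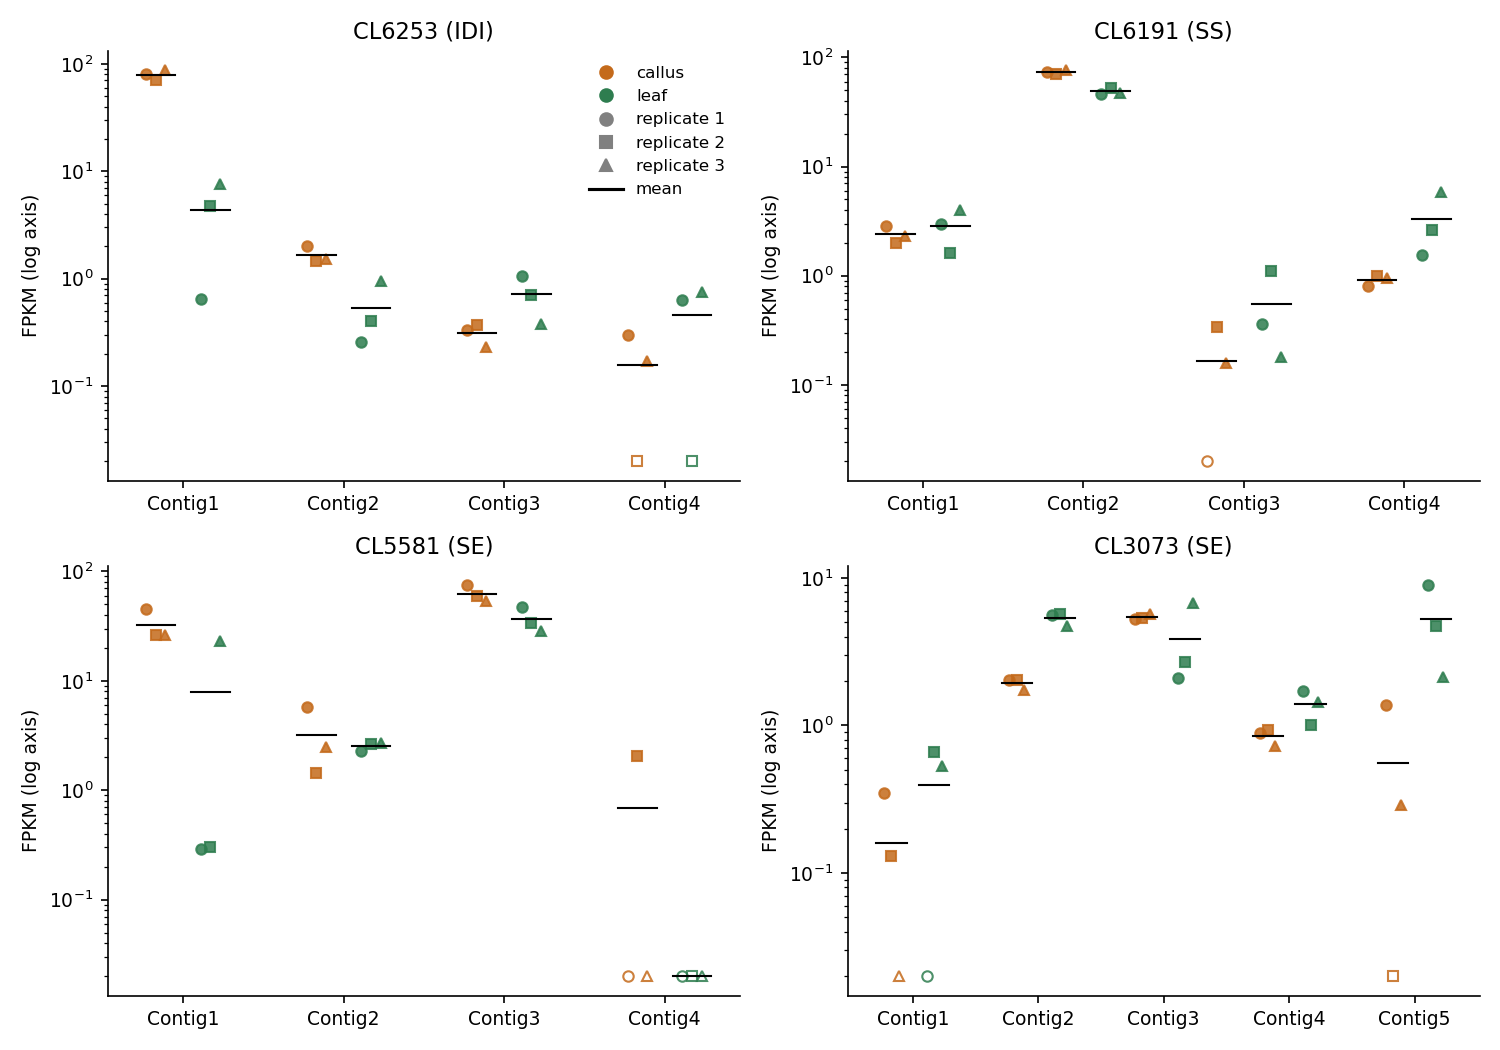
FPKM of each member contig (vertical log axis) within the clusters CL6253, CL6191, CL5581 and CL3073 in callus and leaf libraries. Points are libraries, with the replicate shown by shape, black lines are means of 3 libraries, and open points drawn at 0.02 FPKM stand for 0. CL5581.Contig1 is near 0.3 FPKM in leaf replicates 1 and 2 and at 23.1 FPKM in leaf replicate 3, while CL3073.Contig2 and CL3073.Contig5 have all callus points below all leaf points.

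Among the SE paralogues CL5581, the most abundant, was higher in callus, CL3073 was lower, and Unigene24256 was found almost only in callus, where it lay above CL3073 in every library. CL5581 had 126, 88.9 and 82.5 FPKM in callus, against 49.4, 36.6 and 54.6 FPKM in leaves. Callus replicate 1 was the highest library, and the log2 fold change was 0.89 (fitted standard error 0.224, edgeR adjusted p = 0.0218). Without leaf replicate 2 the adjusted p was 0.0634.

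CL5581.Contig3 (2189 bp) had 74.7, 59.0 and 54.1 FPKM in callus against 46.8, 33.7 and 28.8 FPKM in leaves, without overlap. Alone it did not pass the threshold (log2 fold change 0.79, fitted standard error 0.267, edgeR adjusted p = 0.0767). CL5581.Contig1 (1321 bp) had 45.4, 26.4 and 26.0 FPKM in callus against 0.29, 0.30 and 23.1 FPKM in leaves. Leaf replicate 3 thus lay close to callus replicates 2 and 3, far above the other leaf libraries, and the log2 fold change of 2.07 carried a standard error of 1.65 (edgeR adjusted p = 0.386). In the same library CL5581.Contig3 was at its lowest, so the sum over the cluster varied less between leaves than CL5581.Contig1 did. CL5581.Contig2 (2241 bp) overlapped between the tissues at 5.72, 1.43 and 2.47 FPKM in callus and 2.26, 2.62 and 2.71 FPKM in leaves, and CL5581.Contig4 (1397 bp) was found in callus replicate 2 alone, at 2.06 FPKM.

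Unigene24256 (1870 bp), matched to a squalene monooxygenase of peach, showed the largest fold change of the tested members. It had 16.8, 20.3 and 15.7 FPKM in callus, from 571, 664 and 509 counts, against 0.13, 0.06 and 0.15 FPKM in leaves, from 4, 2 and 5 counts. The lowest callus library was more than 100-fold above the highest leaf library. Tested singly it had a log2 fold change of 7.21 (fitted standard error 0.442, edgeR adjusted p = 0.00371), and it kept its call with each library left out. The size of the fold change rests on 11 leaf counts in all.

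CL3073 had 9.88, 8.48 and 8.42 FPKM in callus, against 18.3, 14.7 and 15.5 FPKM in leaves. All callus libraries lay below all leaf libraries, and the log2 fold change was -0.54 (fitted standard error 0.160, edgeR adjusted p = 0.0356). This call was lost with DESeq2 (log2 fold change -0.43, adjusted p = 0.172) and in 5 of the 6 fits with a library left out, where the adjusted p lay between 0.0557 and 0.157. It was kept only without leaf replicate 2, at an adjusted p of 0.0433.

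Within CL3073 only CL3073.Contig2 passed the edgeR test singly. This contig (2310 bp) had 2.02, 2.04 and 1.74 FPKM in callus against 5.57, 5.66 and 4.73 FPKM in leaves (log2 fold change -1.46, fitted standard error 0.315, edgeR adjusted p = 0.0223). It lost its call whenever a callus library was left out. CL3073.Contig3 (4003 bp), the most abundant by the mean over all 6 libraries, had 5.24, 5.38 and 5.66 FPKM in callus against 2.08, 2.67 and 6.72 FPKM in leaves. It lay below CL3073.Contig2 and CL3073.Contig5 in leaf replicates 1 and 2. The callus libraries were alike and leaf replicate 3 stood above them, and the log2 fold change of 0.50 had an edgeR adjusted p of 0.476, which without leaf replicate 3 became 0.0436 at a log2 fold change of 1.19.

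CL3073.Contig5 (1557 bp) had 1.38, 0 and 0.29 FPKM in callus against 8.91, 4.73 and 2.13 FPKM in leaves, without overlap. Its log2 fold change of -3.14 carried a standard error of 1.48 (edgeR adjusted p = 0.163). CL3073.Contig4 (4948 bp) and CL3073.Contig1 (3887 bp) have an NR match to a pentatricopeptide repeat protein beside their squalene epoxidase domain. They had 0.89, 0.93 and 0.73 FPKM and 0.35, 0.13 and 0 FPKM in callus, against 1.72, 1.01 and 1.43 FPKM and 0, 0.66 and 0.53 FPKM in leaves. With both of them and CL3876.Contig3 left out, the log2 fold change of the SE sum was 0.91 (edgeR adjusted p = 0.0324).

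CL3876.Contig3 (7737 bp) was the single SE contig in a cluster of 10 whose other contigs match retrotransposon proteins. It had 3.05, 4.51 and 2.55 FPKM in callus against 2.37, 0.23 and 3.58 FPKM in leaves, and the tissues overlapped (log2 fold change 0.71, fitted standard error 0.865, edgeR adjusted p = 0.567). Unigene21400 (1497 bp), closest to squalene epoxidase 2 of Eleutherococcus senticosus, had 4.52, 2.09 and 0.51 FPKM in callus against 0.64, 0.16 and 2.45 FPKM in leaves. Both tissues varied more than 8-fold between libraries, and the log2 fold change was 1.17 (fitted standard error 1.17, edgeR adjusted p = 0.489). Unigene62018 (240 bp) had 2 counts, all in leaf replicate 3.

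As shares of SE FPKM, CL5581 made up 78.6, 71.5 and 75.2% in callus and 69.7, 70.7 and 70.7% in leaves. CL3073 made up 6.17, 6.82 and 7.67% in callus and 25.8, 28.4 and 20.1% in leaves. Unigene24256 held 10.5, 16.4 and 14.3% in callus against 0.184, 0.116 and 0.194% in leaves. The log2 ratio of CL3073 over CL5581 averaged -3.44 ± 0.20 in callus and -1.51 ± 0.26 in leaves (SD, n = 3 each), a difference of -1.92 without overlap. The two-sided exact permutation test gave p = 0.1, the smallest value possible here, and 0.2 after adjustment over both main pairs. Between CL3073.Contig3 and CL5581.Contig3, the most abundant contigs of their clusters by the mean over all 6 libraries, the difference was -0.12 (exact permutation p = 0.9), and the shift was seen in the cluster sums and not in this pair. For Unigene24256 over CL5581, a pair chosen after the values were seen, the log2 ratio averaged -2.47 ± 0.39 in callus and -7.79 ± 0.05 in leaves (exact permutation p = 0.1, and 0.18 after adjustment over all 9 pairs, n = 3 each). The leaf FPKM of Unigene24256, at 0.13, 0.06 and 0.15, is near the 0.1 added to each value. That leaf ratio and its small SD therefore depend on the added 0.1.

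The other enzymes of isoprenoid synthesis were listed by SwissProt name for comparison. In the mevalonate pathway 4 of 25 tested unigenes were higher in callus and 0 were lower by edgeR, against 14.2% and 12.3% of all unigenes tested, with 2 lower at an unadjusted p under 0.05 and 1 lower by DESeq2. The 4 were the most abundant unigenes of their enzymes. In the plastid MEP pathway, which makes the same building units for carotenoids and chlorophyll side chains, 13 of 25 tested unigenes were lower, against 12.3% of all, and 2 were higher, against 14.2%. The median log2 fold change was -0.04 in the mevalonate list, where 17 of the 25 tested were acetyl-CoA acetyltransferase contigs, and -1.21 in the MEP list, beside -0.10 over all unigenes.

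Acetyl-CoA acetyltransferase, which makes acetoacetyl-CoA at the start of the mevalonate pathway, averaged 51.8 ± 14.1 FPKM in callus and 19 ± 1.92 FPKM in leaves for CL6721.Contig1 (SD, n = 3 each, log2 fold change 1.45, edgeR adjusted p = 0.016). Mevalonate kinase CL8987.Contig7 averaged 18.9 ± 2.12 FPKM in callus and 3.0 ± 0.495 FPKM in leaves (log2 fold change 2.65, edgeR adjusted p = 0.00557). Phosphomevalonate kinase CL5851.Contig1 averaged 12.4 ± 1.67 FPKM in callus and 5.89 ± 0.206 FPKM in leaves (log2 fold change 1.07, edgeR adjusted p = 0.0293). These kinases phosphorylate mevalonate in turn, and the decarboxylase that follows, Unigene13980, averaged 28.7 ± 2.92 FPKM in callus and 5.62 ± 1.28 FPKM in leaves (log2 fold change 2.35, edgeR adjusted p = 0.00595). HMG-CoA synthase CL9691.Contig2, which makes the substrate of HMGR, had 83.7, 94.3 and 105 FPKM in callus against 3.98, 21.9 and 32.8 FPKM in leaves. Its tissues did not overlap, and the log2 fold change of 2.24 had an edgeR adjusted p of 0.0664.

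In the MEP pathway the most abundant HDR unigene, CL4892.Contig3, the last enzyme of the route, averaged 89.5 ± 12.3 FPKM in callus and 583 ± 91.3 FPKM in leaves (log2 fold change -2.71, edgeR adjusted p = 0.00458). DXS, which opens the route, had contigs in both directions. Its most abundant unigene by the mean over all 6 libraries, Unigene19862, averaged 4.62 ± 1.37 FPKM in callus and 30.1 ± 5.45 FPKM in leaves (log2 fold change -2.72, edgeR adjusted p = 0.00606). The most abundant unigenes of DXR (CL10544.Contig1), the cytidylyl transferase CMS (CL12335.Contig1), MCS (Unigene1275) and HDS (CL5537.Contig1), which act between these, were also lower, with log2 fold changes between -2.50 and -0.93, and that of the kinase CMK (CL2894.Contig1) did not pass, at -0.56 (edgeR adjusted p = 0.171). The 2 higher unigenes were both DXS contigs, CL992.Contig1 and CL992.Contig3, named after their values were seen, with log2 fold changes of 2.14 and 2.12 (edgeR adjusted p = 0.00995 and 0.0109). They averaged 20.7 and 10.4 FPKM in callus, above Unigene19862 there, and 4.66 and 2.37 FPKM in leaves.

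Of the unigenes matched to geranylgeranyl diphosphate synthase (GGPPS), 4 of 15 tested were lower in callus, against 12.3% of all, and 0 were higher by edgeR, against 14.2%, with 0 higher at an unadjusted p under 0.05 and 0 higher by DESeq2. The most abundant, Unigene36753, is named as the small subunit of a heterodimeric GGPPS. It averaged 33.2 ± 3.19 FPKM in callus and 68.2 ± 11.6 FPKM in leaves (log2 fold change -1.04, edgeR adjusted p = 0.018), and the others that were lower were CL7704.Contig1, Unigene5965 and CL8298.Contig1. Of the oxidosqualene cyclases, which use the product of SE, 6 of 47 tested unigenes were higher, against 14.2% of all, and 4 lower, against 12.3%. The most abundant cycloartenol synthase, Unigene5596, which opens the sterol branch, averaged 65.0 ± 9.87 FPKM in callus and 8.16 ± 4.13 FPKM in leaves (log2 fold change 2.99, edgeR adjusted p = 0.0095). Of 26 tested unigenes matched to beta-amyrin synthase, which opens a triterpene branch, 4 were higher and 4 lower, and all 8 are named after their values were seen. The higher ones were CL8340.Contig17, Unigene5640, CL8340.Contig7 and CL1085.Contig10, with log2 fold changes of 1.03, 1.41, 1.78 and 6.39. The lower ones were CL8340.Contig14, CL8340.Contig5 and CL8340.Contig10, with log2 fold changes of -2.49, -2.78 and -3.10, and CL8340.Contig4, which was at 0 FPKM in callus. Unigene5640 averaged 17.3 FPKM in callus and 6.57 FPKM in leaves. Unigene32489, the most abundant of them by the mean over all 6 libraries, had 9.77, 0.65 and 3.58 FPKM in callus against 31.4, 35.2 and 37.2 FPKM in leaves (log2 fold change -2.85, edgeR adjusted p = 0.0693). The unigene of lupeol synthase most abundant by the mean over all 6 libraries, CL5756.Contig1, was not tested. It had 0.06, 0 and 0 FPKM in callus against 35.9, 1.73 and 0.18 FPKM in leaves. That mean rests on leaf replicate 1, the library with the highest share of peanut-matching counts. The origin of this unigene was not checked.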

How the data were processed

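RNA-seq values of 3 callus and 3 leaf libraries were used. The authors assembled the reads into unigenes with Trinity and TGICL, aligned them with Bowtie2 2.2.5 and estimated expression with RSEM 1.2.8. The deposited expected counts are RSEM's unnormalised estimates per unigene, in which reads matching several contigs are divided among them. The authors' deposited FPKM is scaled to effective length and to library size. The authors' own fold changes, p-values and q-values were not used. Deposited unigene lengths are in bases.

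Expected counts were rounded and tested for callus over leaf with edgeR 4.0.16 in R 4.3.3 (TMM, its filter on low counts, quasi-likelihood test, Benjamini-Hochberg adjustment over all unigenes), at an adjusted p of 0.05, for single unigenes, for sums over clusters and for sums over the member contigs of an enzyme. The threshold is wider than the study's 0.001 and 2-fold change, under which edgeR calls 0 unigenes. The standard errors given with edgeR results, called fitted above, are the log2 fold change divided by the square root of the test's F statistic. They are not a direct output of edgeR. The members, lists, tests and named unigenes were chosen with earlier results of these data known. Named were member clusters that average at least 1 FPKM in a tissue, their most abundant contig, and the most abundant unigene of each other pathway enzyme; the remaining contigs of those clusters were named after their values were seen. Log2 ratios of paralogues used FPKM + 0.1 and exact permutation over libraries. Alternatives were DESeq2 1.42.0, limma 3.58.1 on log2(FPKM + 0.01) and log2(FPKM + 1) of unigenes above 0 in at least 3 libraries, size factors of DESeq2 in edgeR, no low-count filter, and each library left out. Robust and other edgeR settings, DESeq2 at the study's thresholds, peanut-matching unigenes counted in, and contigs with another gene left out were further ones, the last 3 chosen after seeing the data. No library was a copy of another by a chi-square comparison of counts. Tests were tried on data simulated at dispersions of 0.01 and 0.1. The common coefficient of variation edgeR estimated between replicates of single unigenes was 0.753, and its square exceeds both. The simulation therefore does not show how the tests behave at the spread of these libraries. Tables and figures were made in Python 3.11.15 (numpy 2.4.6, pandas 2.3.3, matplotlib 3.10.9, scipy 1.17.1). No sequences were used here.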

Additional observations from a re-analysis of the deposited data

Results flagged for a closer look

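Signal was present in unigenes that carry an enzyme's name but were skipped for their peanut match. The IDI contig CL6253.Contig5_All had an expected count of 3.33 in callus replicate 1 and 0 in callus replicates 2 and 3, against 83.1, 16.33 and 61.1 in leaf replicates 1 to 3, so it was present in every leaf library and not only in the library with the highest share of peanut-matching counts. The 10 other skipped unigenes had 0 counts in all callus libraries and 31 counts in all in leaf replicate 1, with 0 in leaf replicates 2 and 3. With all 11 counted in, the log2 fold change of the IDI sum was 3.28 (edgeR adjusted p = 0.00616) beside 3.79 without them.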

How the results depend on the processing

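No paired analysis was possible because the libraries carry no numbers shared between callus and leaf and replicates are numbered in accession order. Counts of single unigenes called fell when a callus library was left out. Single member unigenes called higher in callus numbered 7, against 0 at an adjusted p of 0.001 and 2-fold and 2 to 10 with a library left out. The count lower was 1, against 0 at that threshold and with no filter, 2 with limma on log2(FPKM + 0.01) and with non-legacy edgeR, 3 with DESeq2 and with limma on log2(FPKM + 1), and 0 to 2 with a library left out. Without callus replicate 3, calls over all tested unigenes were 670 higher and 455 lower, against 9417 and 8160. Member clusters called higher numbered 2 at the stricter threshold and 6 to 8 with a library left out, and those lower 0 with DESeq2 (at either threshold), with no filter and at the stricter edgeR threshold, and 0 to 1 with a library left out. Of the 112 other pathway unigenes tested, 12 were higher and 21 lower, where 14.2% and 12.3% of all unigenes tested were. At the stricter threshold 0 and 0 were called, and with a library left out 0 to 17 higher and 2 to 21 lower. DESeq2 called 32 lower, where it called 15044 of 101217 unigenes lower. With no filter 9 were lower, where 3861 of 143094 unigenes were. The enzyme sums kept their direction throughout. With a library left out their log2 fold changes ran over 1.36 to 1.55 for FPPS, 2.09 to 2.67 for HMGR, 3.35 to 4.41 for IDI, 0.71 to 0.98 for SE and 0.33 to 0.51 for SS. That of SE missed the threshold with no filter (0.95) and with DESeq2 at the stricter threshold (0.92). The paralogue ratio of HMGR ran from -0.031 to 0.72 and that of SE from -2.07 to -1.81 with a library left out. Near-zero values changed sign. CL10790 had a log2 fold change of 0.061 with DESeq2 (at either threshold), 0.090 with no filter, and -0.27 to 0.15 with a library left out, above 0 without callus replicate 2 or without leaf replicate 1 or 3. CL10790.Contig2 had -0.062 to 0.33 with a library left out, below 0 without leaf replicate 2. Unigene8517 was at 0.004 with limma on log2(FPKM + 0.01) and, with a library left out, at -0.96 to 0.52 in the cluster table and -0.87 to 0.61 singly, above 0 without leaf replicate 1. The cause of these shifts was not tested. Of the values of named clusters and unigenes, 349 stayed on their side of the threshold, 22 fell below it, 8 came to pass it and 11 changed sign. Those that stayed include values that passed in neither fit. The stricter edgeR threshold, which removed most member calls, was left out of this tally. Leaf replicate spread and the few counts of scarce contigs limit what could be told apart.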
